A study of Mus musculus with 2 samples.

Results

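The genes described here encode the subunits of the proteasome, its activators and the factors that assemble it. They were taken from a microarray table as every gene whose symbol begins with Psma, Psmb, Psmc, Psmd, Psme or Psmg and a digit, and 48 of the 22180 genes measured met that rule. Of these, 46 are known subunits, activators or assembly factors, and 2, Psmc3ip and Psme3ip1, share the symbol root without being part of the particle. Transcript levels were measured in 1 sample of a mouse NIWA embryonic stem cell (ESC) line stably carrying EWS-OCT4A-GFP, a fusion of the EWS protein to the OCT4A isoform of the pluripotency factor OCT4, and in 1 sample of a matching line stably carrying GFP alone. Both lines were grown with LIF, the cytokine that maintains mouse ESCs, and both received doxycycline at 1 µg/ml to lower endogenous OCT-4. The sources used here do not say whether a line is 1 clone, which promoter drives its transgene or how long doxycycline was present. With 1 sample for each line, no difference has a replicate check and no test of the conditions could be made, so values are described by their size. Per-gene values are readings of 1 probe set on the log2 scale, and a difference is the EWS-OCT4A-GFP reading minus the GFP reading. Readings of different genes come from different probes and are not set against each other.

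The proteasome degrades proteins that carry a ubiquitin chain. Its barrel-shaped core, the 20S particle, is a stack of rings of alpha and beta subunits, and the beta rings hold the proteolytic sites. The 19S regulatory particle caps the core, binds and removes ubiquitin and unfolds the substrate with a ring of ATPases, while other activators open the core without ubiquitin. Dedicated chaperones build the core and the cap, and interferon exchanges the catalytic beta subunits for immunoproteasome versions that serve antigen presentation. In human ESCs, high proteasome activity has been linked to PSMD11, a subunit of the 19S particle.

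Proteasome transcripts read on the whole slightly higher in EWS-OCT4A-GFP cells than in GFP cells. Of the 48 genes, 34 had a difference above 0, 13 a difference below 0 and 1 a difference of 0, whereas 49.6% of all genes on the array lay above 0. The median difference was 0.25, beside a median of 0.00 over all genes. It was 0.14 after a loess curve of difference against level was subtracted, with 31 genes above 0 and 17 below, and Psmc4, Psmc6 and Psme3, which lay close to 0, changed sign. Among the 37 members with a mean reading at or above 5.80, the 75th percentile of all values, 28 lay above 0, against 51.9% of all genes that high, and 32 lay within 1.5-fold, against 55.1%.

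Few members differed by much. A gene was counted as at least 2-fold or 1.5-fold different only where its higher reading reached 4.10, the median over every value of the table, which is called the floor here and which 47 members reached. Psma8 and Psmg1 reached 2-fold in the higher direction and no member reached it in the lower, while over all genes at the floor the shares past 2-fold were 9.31% in the higher and 11.9% in the lower direction. At 1.5-fold, Psme4, Psmd13 and Psma6 joined them, giving 5 higher members beside 20% of all genes (4 after loess centring, without Psma6), and Psme1 was the 1 lower member beside 20.6%. The remaining 41 of 47 stayed within 1.5-fold, against 59.4% of all genes at the floor. The middle 50% of the members' differences ran from -0.05 to 0.45, a width of 0.50, and that of all genes at the floor from -0.46 to 0.46, a width of 0.91. The signed difference showed little relation to the mean reading, with r = -0.06 over the 48 members and r = 0.13 over the 47 without Psma8. These values only describe genes of the same pair of samples.

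**Figure D1:**
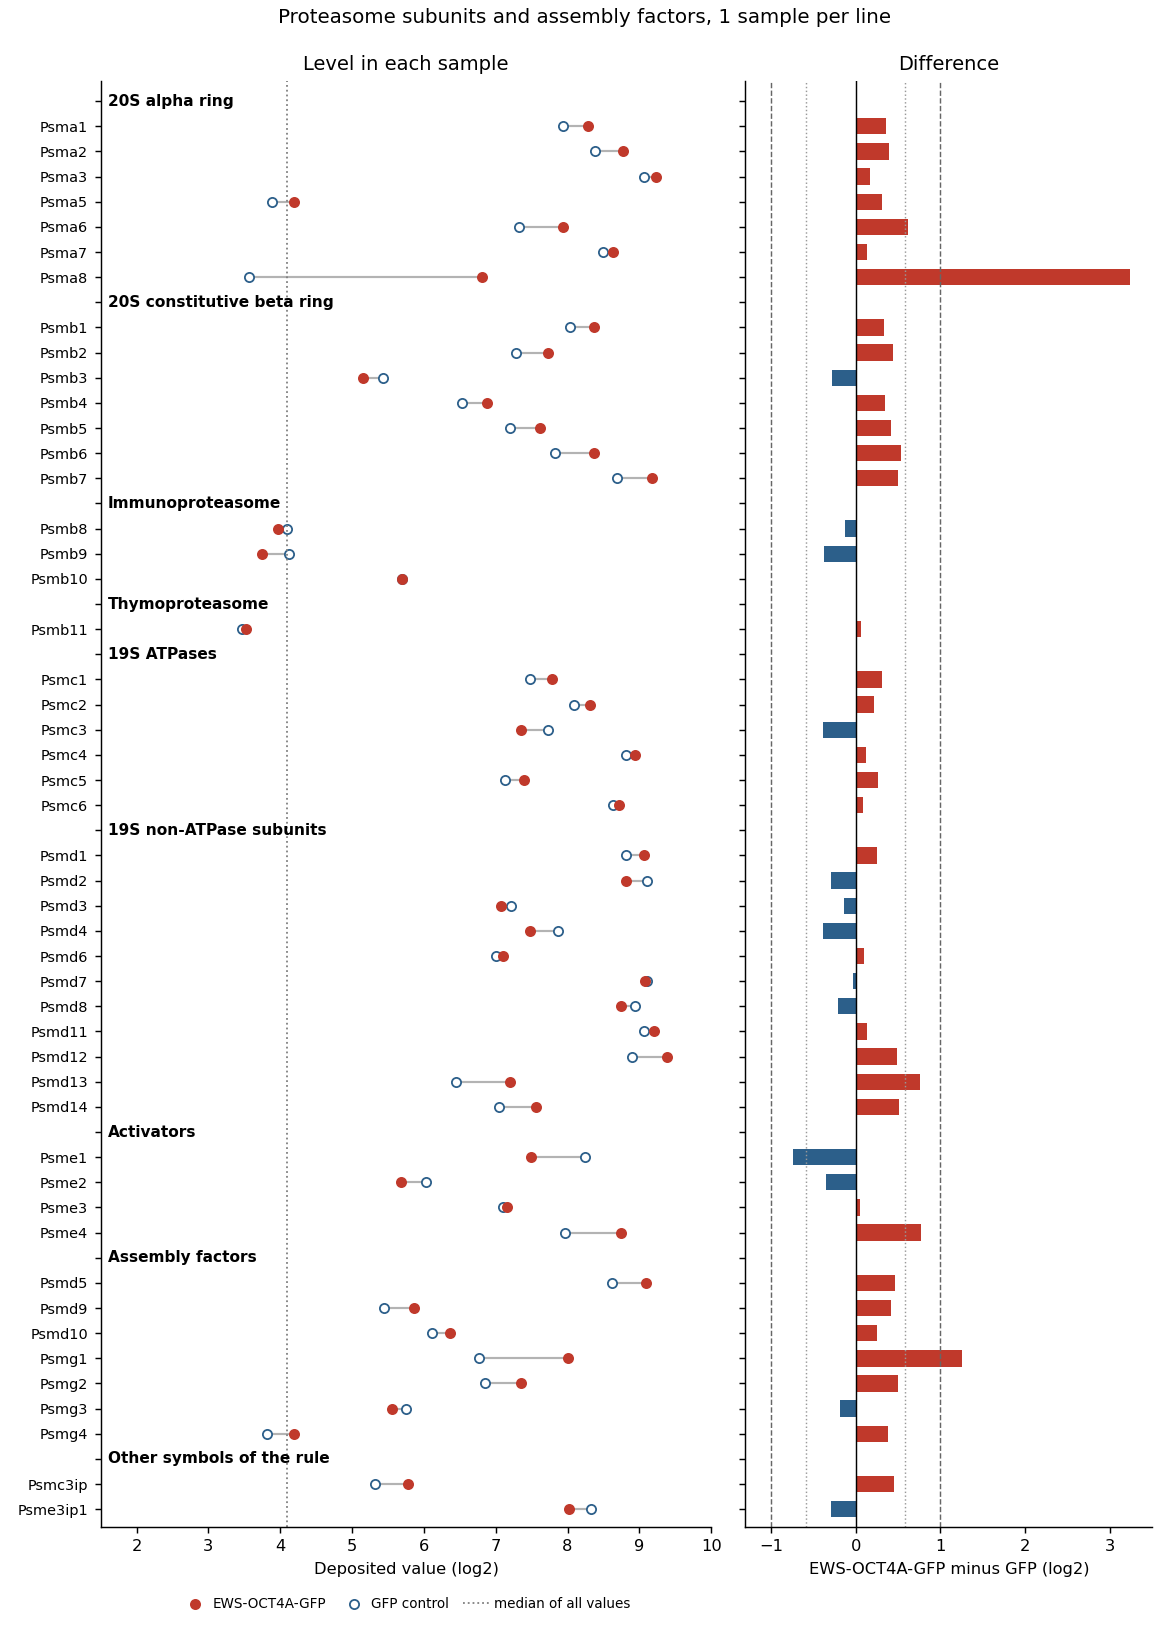
Left, the deposited log2 reading of each of the 48 genes in EWS-OCT4A-GFP cells (filled) and GFP cells (open), with the median of all values dotted. Right, the difference EWS-OCT4A-GFP minus GFP, with lines at 1.5-fold (dotted) and 2-fold (dashed); most bars are short and to the right, Psma8 reaches 3.24 and Psme1 lies farthest left at -0.74.

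The promoters of 5 members are shown because these genes stand near the ends of the range or carry a catalytic site: Psmb5 and Psmb6, which encode catalytic subunits, Psme4 and Psmg1, which were among the most strongly higher, and Psme1, which was the most strongly lower. Psma8, which had the largest difference, had no promoter window. Each sequence is from RefSeq, build GRCm38.p6, runs 5′ to 3′ on the strand of the gene and holds 250 bases before and 50 bases after its start. Capitals mark matches, on either strand, to any of the motifs named in the next paragraph, and no matches overlap in these windows. Psmb5 lies at chr14:54617946-54618245 on the minus strand, Psmb6 at chr11:70525107-70525406 on the plus strand, Psme4 at chr11:30771525-30771824 on the plus strand, Psmg1 at chr16:95990911-95991210 on the minus strand and Psme1 at chr14:55578244-55578543 on the plus strand.
Psmb5: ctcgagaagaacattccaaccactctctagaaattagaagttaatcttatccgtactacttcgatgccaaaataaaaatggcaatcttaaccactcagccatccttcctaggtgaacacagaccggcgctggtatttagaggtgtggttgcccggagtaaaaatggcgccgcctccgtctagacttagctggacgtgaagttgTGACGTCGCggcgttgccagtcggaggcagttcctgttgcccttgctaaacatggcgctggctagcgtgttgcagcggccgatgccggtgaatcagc
Psmb6: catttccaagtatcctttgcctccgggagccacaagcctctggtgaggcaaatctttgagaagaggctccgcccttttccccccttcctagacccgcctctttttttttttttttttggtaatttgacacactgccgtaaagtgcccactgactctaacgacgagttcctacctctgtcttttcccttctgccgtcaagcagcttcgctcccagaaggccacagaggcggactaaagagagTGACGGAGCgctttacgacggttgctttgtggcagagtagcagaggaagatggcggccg
Psme4: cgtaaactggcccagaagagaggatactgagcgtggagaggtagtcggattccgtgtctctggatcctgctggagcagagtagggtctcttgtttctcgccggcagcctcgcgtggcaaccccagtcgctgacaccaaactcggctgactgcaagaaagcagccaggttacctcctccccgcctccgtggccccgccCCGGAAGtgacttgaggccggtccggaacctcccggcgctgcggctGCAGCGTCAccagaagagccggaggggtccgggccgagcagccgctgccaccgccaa
Psmg1: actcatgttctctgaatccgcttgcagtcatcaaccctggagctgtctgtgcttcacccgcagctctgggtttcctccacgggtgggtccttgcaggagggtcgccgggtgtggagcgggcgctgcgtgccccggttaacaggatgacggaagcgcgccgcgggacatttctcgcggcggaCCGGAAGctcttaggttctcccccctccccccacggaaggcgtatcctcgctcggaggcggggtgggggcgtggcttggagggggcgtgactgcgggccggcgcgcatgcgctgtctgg
Psme1: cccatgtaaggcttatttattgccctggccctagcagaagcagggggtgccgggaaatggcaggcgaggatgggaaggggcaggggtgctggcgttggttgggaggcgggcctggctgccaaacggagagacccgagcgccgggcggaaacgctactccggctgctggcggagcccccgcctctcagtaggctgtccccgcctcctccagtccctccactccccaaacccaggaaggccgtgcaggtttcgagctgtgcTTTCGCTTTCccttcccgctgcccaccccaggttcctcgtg

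Promoter windows were at hand for 40 members, in 44 windows, and were searched on both strands beside all 32851 windows of the same length. TGACNNNGC, the core of the antioxidant response element bound by NRF1 and NRF2 with small MAF proteins, was found in 6 member windows (13.6%) and in 12.4% of all windows. The 6 genes were Psmb5, Psmb6, Psmc6, Psmd9, Psmd12 and Psme4. All had a difference above 0, as did 34 of all 48 members, though Psmc6 was at -0.03 after loess centring. The median difference of the 6 genes was 0.46, beside 0.15 for the other members with a window. CCGGAAG, a site of ETS family factors, was found in 17 windows (38.6%) of 16 member genes and in 8.86% of all windows. The genes with and without it had median differences of 0.18 and 0.25. CCAAT, the NF-Y box, was found in 36.4% of member windows and 37.4% of all windows, and TGCGCA, a half-site of nuclear respiratory factor 1, in 11.4% and 7.76%. Genes with and without CCAAT had median differences of 0.19 and 0.26, and those with and without TGCGCA 0.17 and 0.25. The core of the interferon-stimulated response element was added after the values were seen and was found in 5 member windows (11.4%), those of Psme1, Psmb3, Psmd4, Psmd9 and Psmg4, against 3.44% of all windows. Genes with and without that core had median differences of -0.28 and 0.25, though Psmd9 (0.42) and Psmg4 (0.38), which hold it, lay above 0. Whether any motif is related to the differences was not tested. A match describes these letters only, and the windows of genes differ in base composition. The printed promoters of Psmb5, Psmb6 and Psme4 hold TGACNNNGC, so the printed set shows it more often than the 13.6% of member windows.

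All 7 measured genes of the alpha ring, the outer ring of the core that gates entry, read higher in EWS-OCT4A-GFP cells, with a median difference of 0.36. Apart from Psma8 the differences ran from 0.14 for Psma7 to 0.62 for Psma6. Psma6 read 7.94 in EWS-OCT4A-GFP cells, against 7.32 in GFP cells, or 1.53-fold higher, a difference of 0.62 that was 0.52 after loess centring. Psma1 read 8.29 in EWS-OCT4A-GFP cells, against 7.93 in GFP cells, and Psma2 read 8.78 in EWS-OCT4A-GFP cells, against 8.39 in GFP cells. Neither reached 1.5-fold. Psma3 differed by 0.17. Psma5 read 4.19 in EWS-OCT4A-GFP cells, against 3.88 in GFP cells, close to the floor, where the distance from background is unknown, so the size of its difference of 0.31 is uncertain. Psma4, the remaining alpha gene, had no probe set of its own.

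Psma8, which encodes a testis-specific form of the Psma7 subunit that is used in meiotic germ cells, had by far the largest difference among the members. It read 6.81 in EWS-OCT4A-GFP cells, against 3.57 in GFP cells, a difference of 3.24, which placed it at rank 49 of the 22180 genes. The GFP reading lay under the floor, and with that reading raised to the floor the gene was 6.55-fold higher. Psma7 itself differed by 0.14 (8.63 in EWS-OCT4A-GFP cells, against 8.49 in GFP cells), so the difference between the lines was larger for Psma8 than for Psma7 by 3.11, or by 2.58 with the GFP reading of Psma8 raised to the floor. The genes are related, and the sources used here do not say whether their probes can share transcripts.

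Of the 7 constitutive genes of the beta ring, 6 were higher, and the 3 that carry the proteolytic sites differed alike. Psmb5, the chymotrypsin-like subunit, read 7.61 in EWS-OCT4A-GFP cells, against 7.20 in GFP cells, a difference of 0.42. Psmb6, the caspase-like subunit, read 8.36 in EWS-OCT4A-GFP cells, against 7.83 in GFP cells, a difference of 0.53. Psmb7, the trypsin-like subunit, read 9.18 in EWS-OCT4A-GFP cells, against 8.69 in GFP cells, a difference of 0.49. These correspond to 1.33-fold, 1.45-fold and 1.41-fold, all under 1.5-fold. The promoters of Psmb5 and Psmb6 printed above each hold 1 match to the antioxidant response element core, and Psmb7 had no window. Among the structural subunits, Psmb1 differed by 0.33, Psmb2 by 0.44 and Psmb4 by 0.35. Psmb3 was the exception, reading 5.16 in EWS-OCT4A-GFP cells, against 5.44 in GFP cells, a difference of -0.28.

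None of the 3 immunoproteasome genes read higher in EWS-OCT4A-GFP cells, unlike the genes they replace. Psmb8, the counterpart of Psmb5, read 3.98 in EWS-OCT4A-GFP cells, against 4.10 in GFP cells. Psmb9, the counterpart of Psmb6, read 3.75 in EWS-OCT4A-GFP cells, against 4.12 in GFP cells. Both genes lay close to the floor in both lines, and their differences of -0.12 and -0.37 are uncertain in size. Psmb10, the counterpart of Psmb7, read 5.69 in both samples. Taken as pairs, the difference of the immunoproteasome gene minus that of its constitutive counterpart was -0.54 for Psmb8, -0.91 for Psmb9 and -0.49 for Psmb10. With readings under the floor raised to it, Psmb8 and Psmb9 themselves were nearly level, and the pair values were -0.42 for Psmb8, -0.56 for Psmb9 and -0.49 for Psmb10, so that they rest mainly on the constitutive genes. Psmb11, the thymus-specific catalytic subunit, read 3.53 in EWS-OCT4A-GFP cells, against 3.47 in GFP cells and was the 1 member under the floor in both samples.

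**Figure D2:**
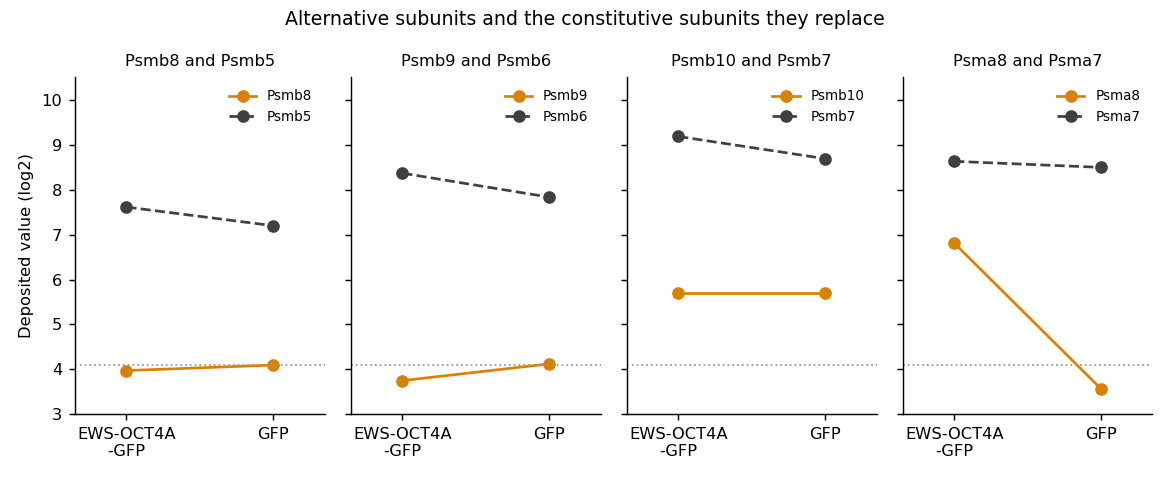
Deposited log2 readings of 4 alternative subunits (orange, solid) and of the constitutive subunits they replace (grey, dashed) in EWS-OCT4A-GFP cells (left) and GFP cells (right) of each panel, with the median of all values dotted. Only the slopes can be compared, since each gene has its own probes; Psmb5, Psmb6 and Psmb7 are higher on the left, Psmb8 and Psmb9 stay near the dotted line, and Psma8 reads 6.81 on the left, against 3.57 on the right.

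The 6 ATPases that form the unfolding ring of the 19S particle differed little, with a median of 0.17 and all within 1.5-fold. Psmc1 (0.31), Psmc5 (0.27), Psmc2 (0.22), Psmc4 (0.12) and Psmc6 (0.08) were higher. Psmc3 was lower, with 7.35 in EWS-OCT4A-GFP cells, against 7.73 in GFP cells, a difference of -0.39. After loess centring the median of the ATPases was 0.058.

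The 11 non-ATPase subunits of the 19S particle were divided, with 6 above 0, 5 below 0 and a median of 0.10, which was 0.0092 after loess centring. Psmd13, a structural subunit of the lid, read 7.20 in EWS-OCT4A-GFP cells, against 6.45 in GFP cells, or 1.69-fold higher. Psmd14, the lid enzyme that cuts the ubiquitin chain from the substrate, read 7.56 in EWS-OCT4A-GFP cells, against 7.04 in GFP cells, a difference of 0.52, and the lid subunit gene Psmd12 differed by 0.49. The lid genes Psmd6 (0.10), Psmd7 (-0.03) and Psmd11 (0.14) differed by less than 0.2 in size. Psmd4, a ubiquitin receptor, read 7.48 in EWS-OCT4A-GFP cells, against 7.87 in GFP cells, a difference of -0.38. The large scaffold subunit genes Psmd2 and Psmd1 differed by -0.29 and 0.25, and the lid genes Psmd8 and Psmd3 by -0.20 and -0.14. When the 19S genes were divided, after their values were seen, into the 9 of the base and the 8 of the lid, both medians were 0.12.

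The activators, which dock on the core in place of the 19S particle, held members at both ends of the range. Psme4 encodes PA200, a nuclear activator, and read 8.74 in EWS-OCT4A-GFP cells, against 7.97 in GFP cells, or 1.70-fold higher. Psme1 and Psme2 encode the PA28 alpha and beta subunits, which form 1 ring and are induced by interferon together with the immunoproteasome. Psme1 read 7.49 in EWS-OCT4A-GFP cells, against 8.24 in GFP cells, or 1.67-fold lower, and its promoter printed above carries the interferon-stimulated response element core, a motif added after the values were seen. The windows of Psme2, Psmb8, Psmb9 and Psmb10 held no match to it. Psme2 read 5.68 in EWS-OCT4A-GFP cells, against 6.03 in GFP cells, a difference of -0.35, whereas a probe set that names Psme2 with other genes differed by 0.20. Psme3, the nuclear PA28 gamma, was nearly level at 0.05.

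Of the 7 assembly factors, 6 were higher, with a median of 0.42. Psmg1 and Psmg2 encode partners in 1 chaperone of the alpha ring. Psmg1 read 8.01 in EWS-OCT4A-GFP cells, against 6.76 in GFP cells, or 2.38-fold higher, the only member besides Psma8 past 2-fold. Psmg2 read 7.36 in EWS-OCT4A-GFP cells, against 6.85 in GFP cells on its brighter probe set, a difference of 0.50, whereas its dimmer probe set gave -0.20 with both readings under the floor. The partner chaperone is made of Psmg3 and Psmg4, and these did not share a direction, with differences of -0.19 for Psmg3 and 0.38 for Psmg4. Psmg4 read 4.19 in EWS-OCT4A-GFP cells, against 3.81 in GFP cells, near the floor. The chaperones of the 19S base, Psmd5 (0.47), Psmd9 (0.42) and Psmd10 (0.25), were all higher and within 1.5-fold. Of the genes that share only the symbol root, Psmc3ip, a cofactor of meiotic recombination, differed by 0.46, and Psme3ip1, which encodes a protein that binds PA28 gamma, by -0.30.

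Genes that work with the proteasome but carry other names were taken from lists of known partners, regulators and substrate carriers. Of 13 measured partner proteins, 8 were higher, beside 49.6% of all genes, and 5 lower, with a median of 0.19. At least 1.5-fold higher were 2, beside 20% of all genes, and at least 2-fold lower were 3, beside 11.9%. Pomp, the maturation factor that brings the beta subunits onto the alpha ring, read 8.03 in EWS-OCT4A-GFP cells, against 7.33 in GFP cells, a difference of 0.69. Sem1, a small lid subunit, differed by 0.59 (0.55 after median centring and 0.48 after loess centring, under 1.5-fold), and Uchl5, a deubiquitinase docked on the 19S base, by 0.52. The 3 lower genes were Ecpas, which encodes the scaffold that ties the cap to the core, with 5.45 in EWS-OCT4A-GFP cells, against 7.30 in GFP cells, Zfand2a and Zfand5. Zfand2a, an arsenite-inducible proteasome-binding protein, read 6.24 in EWS-OCT4A-GFP cells, against 7.86 in GFP cells, and Zfand5, whose protein stimulates the particle, read 7.45 in EWS-OCT4A-GFP cells, against 9.05 in GFP cells. Psmf1 (0.19), Usp14 (-0.24) and Akirin2 (0.20), which carries proteasomes into the nucleus, were within 1.5-fold. Adrm1, a ubiquitin receptor, lacked a single-symbol probe set and was not used here.

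Regulators of proteasome genes, a list that mixes activators with the repressor gene Bach1 and with Keap1, read mostly lower, with a median of -0.49. Of 15, 13 lay below 0, beside 10223 of all 22180 genes. Among these, Ddi1 was under the floor in both samples, and Nfya (-0.095), Nfyc (-0.039) and Nfe2l3 (-0.09) lay near 0. At least 1.5-fold lower were 7, beside 20.6% of all genes at the floor. Nfe2l1, which encodes NRF1, the factor that raises subunit transcription when proteasome activity is short, read 7.09 in EWS-OCT4A-GFP cells, against 8.01 in GFP cells, or 1.89-fold lower. Nfe2l2, which encodes the related NRF2, read 8.08 in EWS-OCT4A-GFP cells, against 8.82 in GFP cells, or 1.68-fold lower. The small MAF partner gene Mafk differed by -1.60, the repressor gene Bach1 by -1.21 and Foxo4 by -1.05. Nfe2l3 stayed near the floor, with 4.14 in EWS-OCT4A-GFP cells, against 4.23 in GFP cells. Keap1, which encodes the adaptor that targets NRF2 for degradation, differed by -0.83 on its brighter probe set and by 0.38 on its dimmer one. Nfyb, an NF-Y subunit, was the 1 regulator at least 2-fold higher, with 7.28 in EWS-OCT4A-GFP cells, against 5.92 in GFP cells. Both NRF genes read lower in the line in which most subunit genes read slightly higher. These are transcript readings and not activities, and whether the differences are related was not tested.

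Genes that supply substrates were likewise lower in 7 of 10 cases, beside 10223 of all 22180 genes, with a median of -0.53. At least 1.5-fold lower were 5, beside the same 20.6% of all genes. Only 10 of the 18 symbols listed were measured. The shuttle genes Ubqln1 (-1.43), Ubqln2 (-1.38) and Rad23b (-0.74), whose proteins carry ubiquitylated substrates to the 19S particle, and the ubiquitin-activating enzyme gene Uba6 (-0.64) were among them, as was Nploc4 (-0.66), a cofactor of the VCP segregase. Vcp differed by -0.22. Ubqln4 ran the other way, with 7.40 in EWS-OCT4A-GFP cells, against 6.09 in GFP cells.

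Class I antigen processing and its interferon regulators, which the immunoproteasome and PA28 serve, were lower in 14 of 16 cases, with a median of -0.53. Over all genes, 10223 of 22180 lay below 0. At least 2-fold lower were 6, beside 11.9% of all genes. Tap1, the peptide transporter gene, read 5.27 in EWS-OCT4A-GFP cells, against 6.99 in GFP cells, H2-K1, a class I heavy chain gene, read 4.37 in EWS-OCT4A-GFP cells, against 6.15 in GFP cells, and B2m, the light chain gene, differed by -1.98. Tapbp, Irf2 and the interferon-gamma receptor gene Ifngr2 differed by -1.35, -1.55 and -2.06. Tapbp had a dimmer probe set at -0.39. Tapbpl, which encodes a relative of the Tapbp protein, ran the other way with a difference of 0.67, and Irf1 differed by 0.22. Tap2 and Nlrc5 differed by -0.16 and -0.15 under the floor, and Stat2 (-0.098) and Pdia3 (-0.11) lay near 0. Psme1 and Psme2 lay on the same side as these 6 genes, with smaller differences than theirs.

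**Figure D3:**
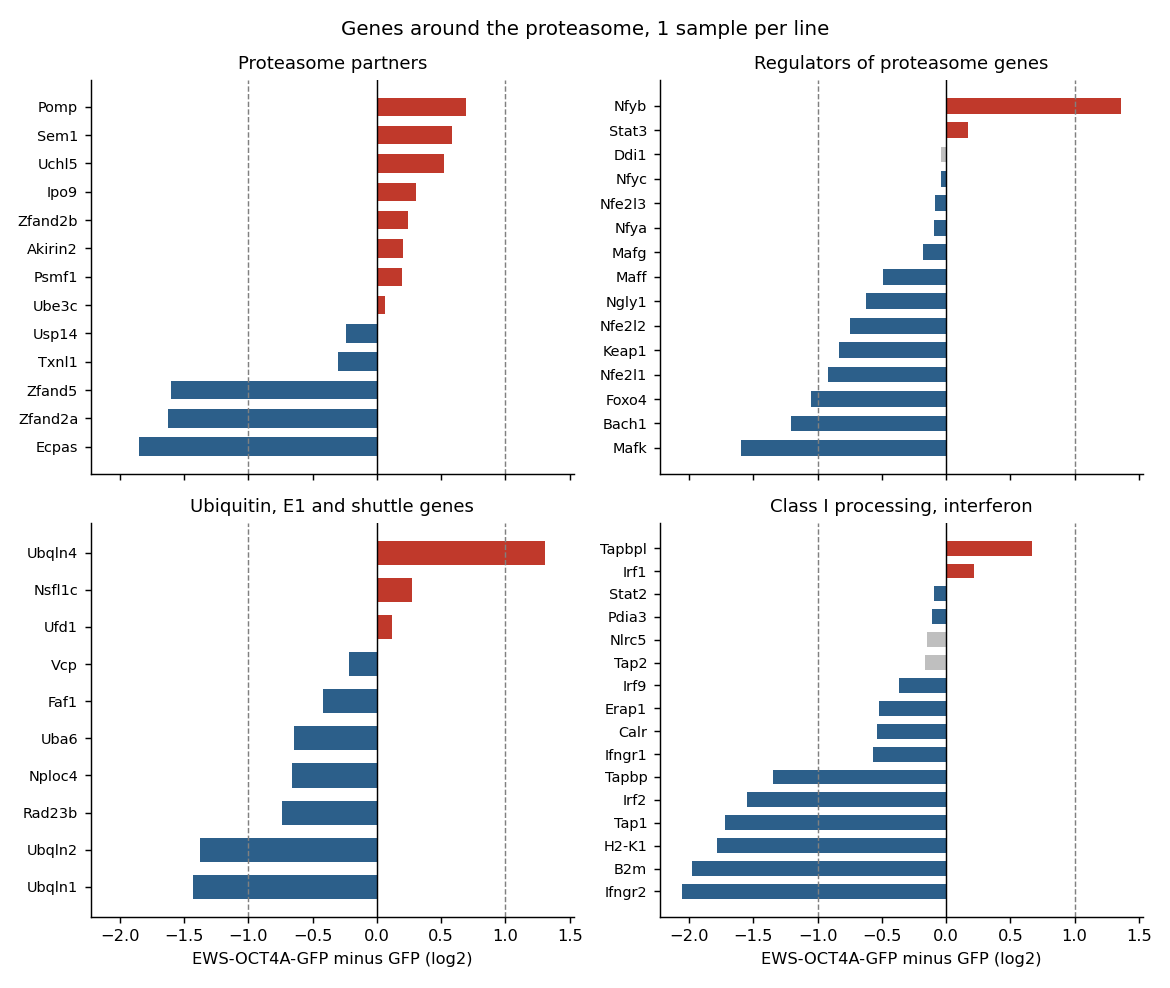
Difference EWS-OCT4A-GFP minus GFP (log2) of each measured gene of 4 lists around the proteasome, red above 0, blue below 0 and grey where both readings lie under the floor, with dashed lines at 2-fold. Pomp, Sem1 and Uchl5 lead the partners, while most regulators, shuttle genes and class I genes point left, down to -2.06 for Ifngr2.

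Cytosolic ribosomal proteins, another set of genes for a large abundant complex, had a larger median difference than the proteasome genes. It was 0.59 over 69 genes, of which 66 lay above 0, beside 49.6% of all genes. At least 1.5-fold higher were 35 of the 64 at the floor, against 5 of 47 for the proteasome and 20% of all genes at the floor. With 1 sample for each line the gap between the sets could not be tested. Members of each set differ in level and in probes.

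**Figure D4:**
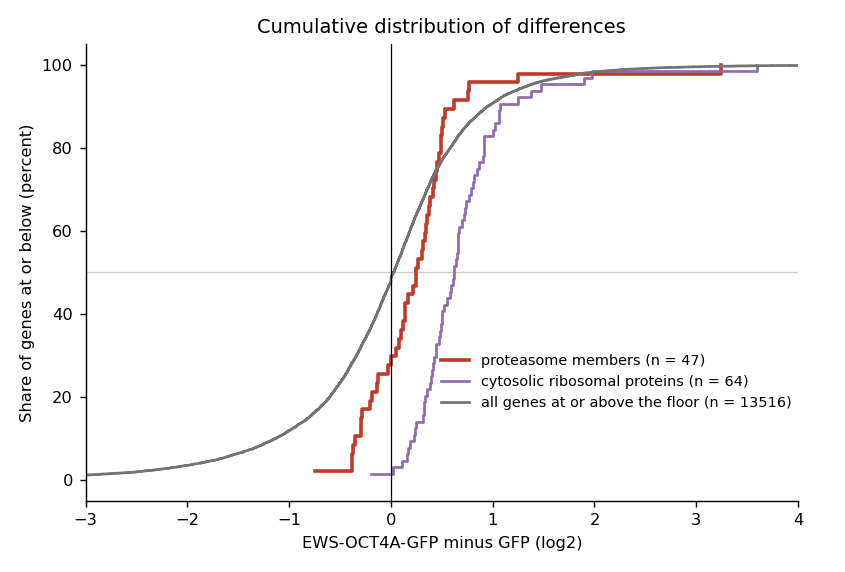
Share of genes (percent) at or below each difference EWS-OCT4A-GFP minus GFP (log2), for 47 proteasome genes, 64 cytosolic ribosomal protein genes and all 13516 genes at or above the floor. The proteasome curve is steeper than that of all genes and crosses 50% at 0.25, left of the ribosomal proteins.

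Markers of several cell types were also read. The ESC and trophectoderm markers differed between the samples, while the fibroblast and leukocyte lists had median differences of -0.04 and -0.01. Of 10 ESC markers all lay above 0 and 8 were at least 2-fold higher, beside 9.31% of all genes at the floor. Their summed linear readings were 7141 in EWS-OCT4A-GFP cells, against 709.8 in GFP cells. Pou5f1, which encodes OCT4, was nearly level, with 5.37 in EWS-OCT4A-GFP cells, against 5.24 in GFP cells, and Dppa5a lay under the floor in both samples. Of 10 trophectoderm markers all lay below 0 and 8 were at least 2-fold lower, beside 11.9% of all genes at the floor. Their sums were 356.3 in EWS-OCT4A-GFP cells, against 5746 in GFP cells. The ESC markers Nanog and Sox2 read 5.94 and 5.50 in the GFP sample, above the floor. The fibroblast list had sums of 161.3 in EWS-OCT4A-GFP cells, against 233.8 in GFP cells, and its member Postn read 2.02 in EWS-OCT4A-GFP cells, against 6.06 in GFP cells. Without Postn the fibroblast sums were 157.3 in EWS-OCT4A-GFP cells, against 167.0 in GFP cells, and Dcn and Lum lay under the floor in both samples. Of 6 leukocyte markers, 5 lay under the floor in both samples, Ptprc among them, with sums of 129.9 in EWS-OCT4A-GFP cells, against 60.9 in GFP cells, and Cd3e differed by 2.03. Without Cd3e the leukocyte sums were 37.3 in EWS-OCT4A-GFP cells, against 38.3 in GFP cells. The part of these populations in the proteasome differences was not tested. In such bulk RNA, fewer cells of a type and less RNA per cell cannot be told apart.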

How the data were processed

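Total RNA of 2 samples, 1 for each stable line, was hybridised to an Affymetrix array. The authors deposited log2 values for 33793 probe sets, made by RMA in Affymetrix Expression Console 1.1 per the submitters' processing notes. RMA corrects background, quantile-normalizes arrays and summarises probes, so a shift of most transcripts would not be visible. The log base is not stated and was taken from the method and the range of 0.618 to 13.0. The design text speaks of duplicates, but each line has 1 column, and the sources used here do not say how many arrays stand behind it. Precision is limited by that number.

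Of the probe sets, 23521 had 1 platform gene symbol, 1814 several and 8458 none in the annotation used. For each of 22180 genes the probe set with the highest mean was kept, which mattered for 3 members. All 48 members matched a RefSeq symbol of GRCm38.p6, and 2 protein-coding symbols of the rule, Psma4 and Psme2b, had no probe set of their own. No detection call was used. The members, lists and thresholds were chosen with earlier results of these data known, and any member could be named. Of the other lists, genes at least 1.5-fold different could be named, and Pomp, Adrm1 and the NRF genes at any value; further names were picked with values known. The alternatives varied the fold threshold, floor, normalization, probe set rule and membership. The counting was tested on simulated data. The software was Python 3.11.15 with pandas 2.3.3, numpy 2.4.6, statsmodels 0.14.6 and matplotlib 3.10.9.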

Additional observations from a re-analysis of the deposited data

How the results depend on the processing

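No paired analysis was possible because each line has 1 sample, and no sample could be left out. The count of members at least 2-fold higher (2) became 5 at 1.5-fold and 1 at 3-fold, and the count at least 2-fold lower (0) became 1 at 1.5-fold. The count at least 1.5-fold higher (5) became 2 at 2-fold and 1 at 3-fold, and that at least 1.5-fold lower (1) became 0 at both. These follow from the thresholds themselves. Under loess centring 4 members were at least 1.5-fold higher, since Psma6 fell short at 0.52. With readings under the floor raised to it, an alternative chosen after seeing the data, the pair difference was -0.42 for Psmb8 minus Psmb5 and -0.56 for Psmb9 minus Psmb6. Loess centring with a span of 0.3 moved the median of the members from 0.25 to 0.14 and that of the 19S ATPases from 0.17 to 0.058. Every other median, and every pair difference, moved by less than 0.1 on the log2 scale, the size used to call a value moved, under median centring, quantile normalization, loess centring, averaging of probe sets and, where run, restriction to members at the floor or to the role lists, and none changed sign; the 19S non-ATPase median came closest to 0, at 0.0092 under loess centring. Part of this was fixed in advance. Median centring shifted every difference by -0.032, and the paired genes have 1 probe set each, so centring and averaging could not change a pair difference. RMA already includes quantile normalization, so repeating it was a weak check. The median of all genes moved by at most 0.03 in size. Signal over background is unknown, which limits Psma5, Psma8, Psmb8, Psmb9, Psmb11 and Psmg4, each with a reading under the floor.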

Other observations

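Probe sets that name several genes were left out of the counts. The brighter of a pair shared by Psma4 and AY074887 read 8.57 in EWS-OCT4A-GFP cells, against 8.17 in GFP cells, a difference of 0.40, within the range of the other alpha subunit genes, and the dimmer lay under the floor in both samples. A probe set that names Armc9 and Psmd1 read 6.02 in EWS-OCT4A-GFP cells, against 4.77 in GFP cells, a difference of 1.25, whereas the probe set of Psmd1 alone differed by 0.25. A probe set that names Psme2 with 9930111J21Rik1 and 9930111J21Rik2 read 5.29 in EWS-OCT4A-GFP cells, against 5.09 in GFP cells, a difference of 0.20, opposite in sign to the -0.35 of the probe set of Psme2 alone. The identical readings of Psmb10 in both samples were shared by 4.83% of all probe sets, whose readings were equal to the 3 decimals deposited.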
